A study of Mus musculus with 6 samples.

Results

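The 9 genes described here encode transcription factors that mark or specify the deep and the upper layers of the cerebral cortex. They were followed in RNA sequencing of E13.5 mouse cortex with and without conditional ablation of Ybx1, an RNA-binding protein of cortical progenitors and neurons. They were taken by symbol from the deposited table, 9 of the 17348 genes listed. The rule uses no measured value, but the genes were chosen with earlier results of these data known. The deep-layer factors were Tbr1, Bcl11b (Ctip2), Fezf2 and Sox5, the upper-layer factors were Pou3f2 (Brn2), Pou3f3 (Brn1), Cux1 and Cux2, and Bcl11a (Ctip1), which neurons of both layers express, was kept apart from either group. All 9 had enough counts to be tested, among 13340 tested genes.

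Cortices were dissected at E13.5, with 3 libraries from WT embryos and 3 from Ybx1 cKO embryos. The cKO genotype is Nestin-Cre, Ybx1 fl/fl, in which exons of Ybx1 are flanked by loxP sites and removed where the Nestin promoter drives Cre, in neural progenitors and the neurons and glia that descend from them. Cells that never expressed Nestin-Cre, such as vessels, blood and microglia, keep the gene. The comparison libraries are called WT in the labels and wild-type littermates in the study's methods, whereas in the study's histology the control genotype is Ybx1 fl/fl without Cre. Embryos that carry Nestin-Cre without floxed Ybx1 were not analysed here, so an effect of the Cre transgene itself cannot be told apart from loss of Ybx1. Nothing in the labels says that each library is 1 embryo, and the p-values measure the spread between these libraries.

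Neurons of the neocortex are born inside out. Radial glia lining the ventricle produce the deep-layer neurons first, those of layers V and VI, and later divisions produce the upper-layer neurons, which migrate past the older cells. Fezf2 and Bcl11b specify subcerebral projection neurons of layer V, Tbr1 specifies corticothalamic neurons of layer VI and represses Fezf2, and Sox5 times the succession of deep-layer types. The POU factors Pou3f2 and Pou3f3 are present in progenitors and act in the production and migration of upper-layer neurons, while Cux1 and Cux2 shape their dendrites and synapses. At E13.5 deep-layer neurogenesis is under way and upper-layer neurons have hardly begun to be born. Transcripts of the upper-layer factors at this age need not come from upper-layer neurons, since progenitors and other cells make them too.

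Several of these factors are close paralogs, and reads that cannot be assigned between paralogs would blur their separate values. The stretches shown here are the longest runs of identical bases between the coding sequences of each paralogous pair, and they show how short the shared sequence is. Capitals mark the identical run, and lower-case letters the 10 bases on either side. The sequences and positions come from the GENCODE M21 annotation of GRCm38, the build named in the submitters' processing notes, and are written 5′ to 3′ on the coding strand.
Pou3f2, chr4:22487513-22487555, minus strand: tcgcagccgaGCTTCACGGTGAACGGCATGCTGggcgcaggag
Pou3f3, chr1:42697812-42697854, plus strand: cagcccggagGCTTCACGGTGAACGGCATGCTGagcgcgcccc
Cux1, chr5:136312811-136312853, minus strand: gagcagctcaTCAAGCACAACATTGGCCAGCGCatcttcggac
Cux2, chr5:121873825-121873867, minus strand: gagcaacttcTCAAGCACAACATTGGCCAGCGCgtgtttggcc
Bcl11a, chr11:24165088-24165130, plus strand: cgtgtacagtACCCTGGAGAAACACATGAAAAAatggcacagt
Bcl11b, chr12:107915451-107915493, minus strand: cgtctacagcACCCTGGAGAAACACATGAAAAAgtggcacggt
Each pair shared at most 23 identical bases in a row, all within a single coding exon. Among all 50-base words in the transcripts of the 9 genes, 0 occurred in another of the 9, and between 0 and 0.397% occurred in any other annotated gene, the highest share being that of Pou3f2. A coding read longer than such a run therefore differs between paralogs.

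The genes lie on 8 chromosomes. In GRCm38 Tbr1 is at chr2:61802930-61814114 (plus strand), Bcl11b at chr12:107910403-108003602 (minus), Fezf2 at chr14:12342094-12348189 (minus), Sox5 at chr6:143828425-144781977 (minus) and Bcl11a at chr11:24078056-24174123 (plus). Pou3f2, which has a single annotated transcript, is at chr4:22482780-22488366 (minus) and Pou3f3 is at chr1:42695768-42703176 (plus). Cux1 at chr5:136248135-136567490 (minus) and Cux2 at chr5:121856366-122050102 (minus) share a chromosome. Exons of Sox5, Bcl11a and Cux1 overlap exons of an antisense gene, Sox5os1, 4930538E20Rik and Gm16599 respectively. Whether the counting used strand is not given in the sources used here, so reads of these partners cannot be told apart from reads of the 3 genes.

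Library totals lay between 15907491 and 16282929 estimated counts, and the 9 genes took 0.247% to 0.309% of them. Ybx1, the targeted gene, was at 1021, 528 and 1220 CPM (counts scaled to library size with TMM factors) in WT replicates 1 to 3 and at 83.1, 117 and 147 CPM in cKO. The library labelled WT replicate 2 thus lay well below the other WT libraries and well above every cKO library. The log2 fold change of Ybx1 was -3.00 (SE 0.33), with an edgeR adjusted p of 0.128 (quasi-likelihood test, Benjamini-Hochberg), and without the library labelled WT replicate 2 these were -3.28 and 0.0206. A second library stood apart: cKO replicate 3 held 2153 counts of the keratin Krt5 and 2995 of the collagen Col3a1, whereas the other libraries held 0 or 1 and 52 to 72. The log2 fold change of each laminar factor is given with and without each of these libraries. Bulk tissue was sequenced, and fewer cells of a type cannot be told apart from less RNA per cell.

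All 9 transcripts were readily detected in every library. On the TPM scale, which divides by transcript length and so allows levels of different genes to be compared, Bcl11a was the most abundant at 345 ± 51.6 TPM (SD, n = 6), followed by Tbr1 at 276 ± 42.8 TPM. Pou3f3 (210 ± 16.6 TPM) and Fezf2 (194 ± 32.5 TPM) came next, and Pou3f3 exceeded Fezf2 in 4 of 6 libraries, so that their order was within the spread. Sox5 (114 ± 16.3 TPM), Cux1 (104 ± 11.3 TPM) and Bcl11b (99.3 ± 16.3 TPM) formed a group whose neighbours did not differ beyond their spread. Pou3f2 was at 39.6 ± 4.74 TPM. Cux2 was lowest at 25.5 ± 6.27 TPM, close to the median of all tested genes, 25.4 TPM. The order of levels did not follow layer. Pou3f3, an upper-layer factor, was at 185 TPM or more, whereas the deep-layer factors Sox5 and Bcl11b reached at most 134 and 120 TPM. The paralog of Pou3f3, Pou3f2, was second from the bottom.

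**Figure D1:**
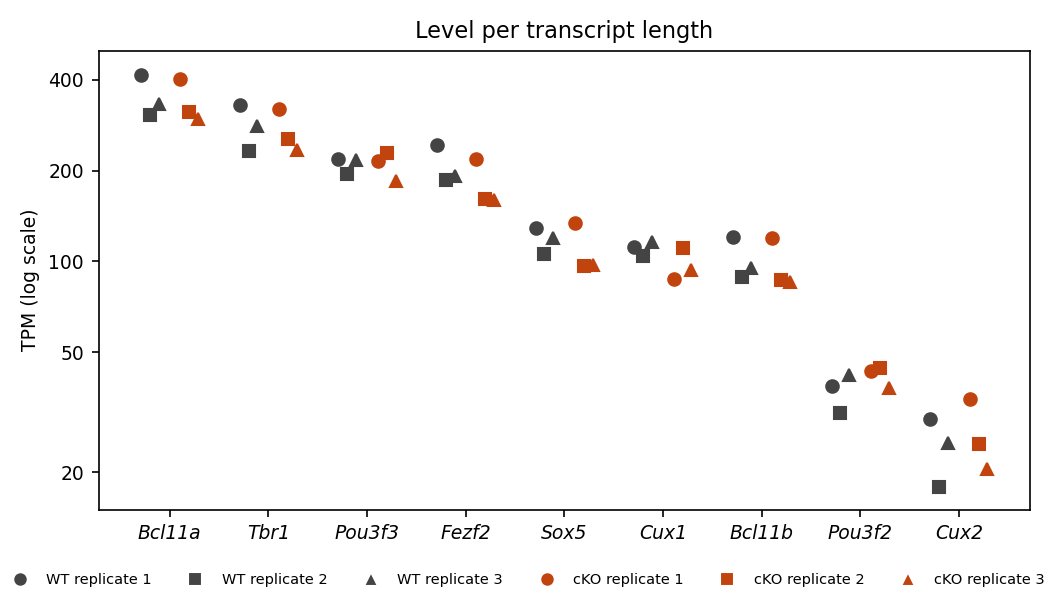
Level of each transcription factor in TPM (log axis), ordered by its mean over 6 libraries, with WT libraries in grey and cKO libraries in orange and a marker shape for each replicate number. Bcl11a and Tbr1 were the most abundant and Cux2 the least, and WT and cKO points overlap for every gene.

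The first question was whether loss of Ybx1 changed any of these transcripts at E13.5. None of the 9 passed the test, since 0 of 9 had an adjusted p below 0.05 (background 0% of the 13340 genes tested) and 0 of 9 had an unadjusted p below 0.05 (background 3.57%). WT and cKO libraries overlapped for 9 of 9, whereas the genotypes did not overlap for 9.04% of all genes tested, with 4.21% higher and 4.83% lower in cKO. Log2 fold changes lay between -0.24 and 0.16, and each 95% interval included 0. With 9 genes these counts lie near the background and say nothing particular about laminar factors. The values of each gene follow, by layer, in CPM.

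Tbr1, the layer VI determinant, was at 555, 425 and 506 CPM in WT replicates 1 to 3 and at 545, 464 and 412 CPM in cKO replicates 1 to 3. Replicate 1 was the highest library in each genotype, and the genotypes overlapped over nearly their whole range. The means were 495 ± 65.7 and 474 ± 66.8 CPM (SD, n = 3 each), and their log2 fold change was -0.06 (SE 0.13, 95% interval -0.37 to 0.24, edgeR adjusted p 1). This interval corresponds to 0.774 to 1.18 times the WT level. The sign of this difference was not stable, as it was 0.0279 without WT replicate 1, 0.0255 without cKO replicate 3, -0.16 without the library labelled WT replicate 2 and -0.17 without cKO replicate 1.

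Bcl11b, which directs axons of layer V neurons toward the spinal cord and is also a factor of striatal neurons, showed the same layout. It was at 436, 351 and 371 CPM in WT and at 438, 340 and 325 CPM in cKO, with replicate 1 again highest in each genotype. Means were 386 ± 44.2 and 368 ± 61.5 CPM (SD, n = 3 each), and the log2 fold change was -0.07 (SE 0.13, 95% interval -0.38 to 0.24, edgeR adjusted p 1). Its sign turned on omission of WT replicate 1 (0.029) or of cKO replicate 3 (0.0113), and it was -0.13 without the library labelled WT replicate 2, -0.21 without cKO replicate 1 and -0.02 without cKO replicate 2.

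Fezf2, the selector of subcerebral projection neurons, had the most negative value among the deep-layer factors. It was at 266, 231 and 228 CPM in WT and at 247, 191 and 185 CPM in cKO. A pair of cKO libraries lay below all WT libraries, and cKO replicate 1 lay within the WT range. Means were 241 ± 20.9 and 208 ± 33.7 CPM (SD, n = 3 each), and the log2 fold change was -0.22 (SE 0.12, 95% interval -0.50 to 0.07). The unadjusted p was 0.115 and the adjusted p 1 by edgeR, so this difference did not pass the test. Its interval allows a cKO level between 0.708 and 1.047 times that of WT. The estimate was negative in 16 of 16 alternative fits, from -0.35 without cKO replicate 1 to -0.14 without WT replicate 1. Leaving out the library labelled WT replicate 2 gave -0.25, and leaving out cKO replicate 3 gave -0.14.

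Sox5, an SRY-box factor that restrains layer V genes in layer VI and subplate neurons, was at 352, 317 and 342 CPM in WT. In cKO it was at 367, 275 and 277 CPM. As with Fezf2, cKO replicates 2 and 3 lay below every WT library, while cKO replicate 1 was the highest library of all. Means were 337 ± 18.0 and 306 ± 52.4 CPM (SD, n = 3 each), and the log2 fold change was -0.14 (SE 0.12, 95% interval -0.42 to 0.14, edgeR adjusted p 1). The estimate was negative in 16 of 16 alternative fits, from -0.28 without cKO replicate 1 to -0.07 without cKO replicate 2. Leaving out the library labelled WT replicate 2 gave -0.18, and leaving out cKO replicate 3 gave -0.07.

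Bcl11a, the zinc-finger paralog of Bcl11b that neurons of deep and upper layers share, was at 669, 544 and 572 CPM in WT and at 660, 538 and 486 CPM in cKO. Means were 595 ± 65.7 and 561 ± 89.7 CPM (SD, n = 3 each), and the log2 fold change was -0.08 (SE 0.13, 95% interval -0.39 to 0.22, edgeR adjusted p 1). The sign turned when WT replicate 1 (0.0111) or cKO replicate 3 (0.0088) was left out. The value was -0.15 without the library labelled WT replicate 2, -0.21 without cKO replicate 1 and -0.06 without cKO replicate 2. Bcl11a tracked Bcl11b closely from library to library. The log2 CPM of Bcl11a minus that of Bcl11b was 0.62, 0.63 and 0.63 in WT and 0.59, 0.66 and 0.58 in cKO, a range much narrower than that of either gene.

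Among the upper-layer factors, Pou3f2 was at 105, 93.0 and 122 CPM in WT and at 119, 131 and 108 CPM in cKO. WT replicate 3 lay above a pair of the cKO libraries, so the genotypes overlapped. Means were 107 ± 14.5 and 119 ± 11.6 CPM (SD, n = 3 each), and the log2 fold change was 0.16 (SE 0.11, 95% interval -0.10 to 0.42, edgeR adjusted p 1). This was the highest estimate of the 9, and it was positive in 16 of 16 alternative fits, the highest being 0.27 without WT replicate 3. Leaving out the library labelled WT replicate 2 gave 0.07, and it was 0.08 without cKO replicate 2 and 0.22 without cKO replicate 3.

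Pou3f3, which acts redundantly with Pou3f2 in migration of upper-layer neurons, had the smallest estimate. It was at 412, 400 and 438 CPM in WT and at 410, 469 and 366 CPM in cKO, where the WT libraries fell inside the cKO range. Means were 417 ± 19.5 and 415 ± 51.8 CPM (SD, n = 3 each). The log2 fold change was -0.01 (SE 0.10, 95% interval -0.24 to 0.23, edgeR adjusted p 1), equal to 0.847 to 1.17 times the WT level, the narrowest interval of the 9. Its sign changed in 6 of 16 alternative fits, including 0.0315, 0.0099 and 0.0761 without WT replicate 3, cKO replicate 1 and cKO replicate 3. It was -0.03 without the library labelled WT replicate 2 and -0.10 without cKO replicate 2. The ratio of these POU genes was lower in every cKO library, as the log2 CPM of Pou3f3 minus that of Pou3f2 was 1.97, 2.10 and 1.85 in WT and 1.79, 1.84 and 1.77 in cKO, by a small margin between WT replicate 3 and cKO replicate 2. This pair was examined after the values were seen and received no test. It was the only gene pair examined whose ratio did not overlap. The ratios of Cux1 to Cux2, Bcl11a to Bcl11b, Tbr1 to Bcl11b and Tbr1 to Fezf2 overlapped between the genotypes.

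Cux1, a homeodomain factor that in upper layers promotes dendritic branching and is also made outside neurons, had the lowest unadjusted p of the 9. It was at 225, 231 and 248 CPM in WT and at 175, 234 and 189 CPM in cKO. Here cKO replicates 1 and 3 lay below all WT libraries, and cKO replicate 2 lay between WT replicate 3 and the library labelled WT replicate 2. Means were 235 ± 12.2 and 199 ± 30.8 CPM (SD, n = 3 each), and the log2 fold change was -0.24 (SE 0.11, 95% interval -0.49 to 0.02). The unadjusted p was 0.0679, rank 687 among the genes tested, and the edgeR adjusted p was 1. The estimate was negative in 16 of 16 alternative fits, from -0.37 without cKO replicate 2 to -0.145 without cKO replicate 1. Leaving out the library labelled WT replicate 2 gave -0.25, and leaving out cKO replicate 3 gave -0.20.

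Cux2, which in the embryo also labels progenitors of the subventricular zone and some interneurons, varied most. It was at 81.2, 52.0 and 72.4 CPM in WT and at 98.2, 70.4 and 59.2 CPM in cKO, a 1.89-fold range between cKO replicate 1 and the library labelled WT replicate 2. Means were 68.5 ± 14.97 and 76.0 ± 20.1 CPM (SD, n = 3 each), and the log2 fold change was 0.15 (SE 0.21, 95% interval -0.34 to 0.64, edgeR adjusted p 1). It was -0.0155 without the library labelled WT replicate 2 and -0.0718 without cKO replicate 1, whereas it was 0.30 without cKO replicate 3 and 0.29 without WT replicate 1, so no direction is given. The interval spans 0.79 to 1.56 times the WT level and is the widest of the 9.

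**Figure D2:**
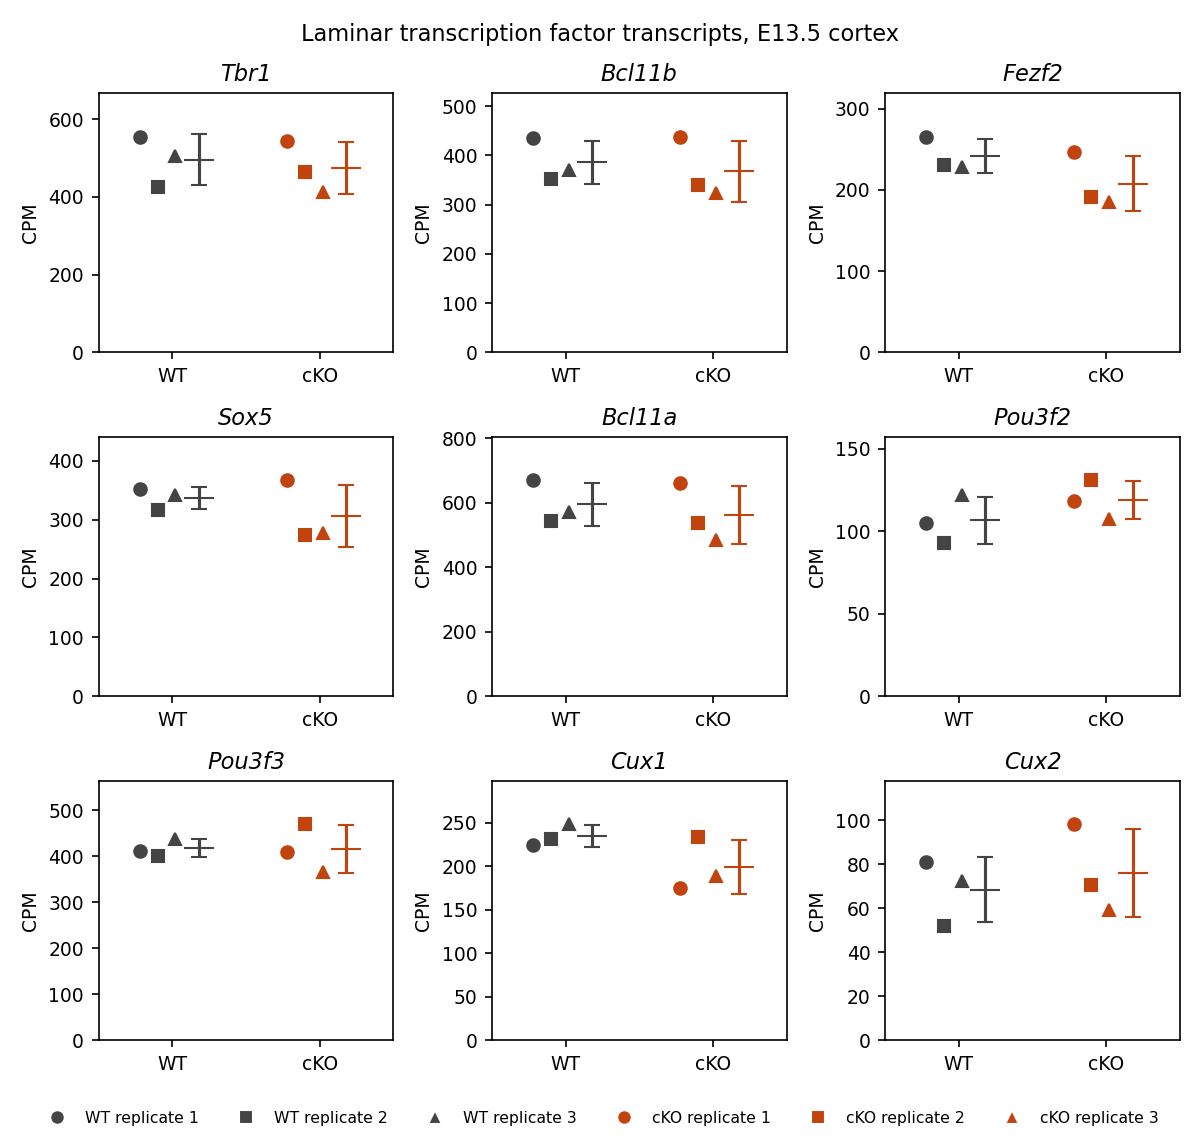
CPM of each transcription factor in every library, with WT in grey and cKO in orange, a marker shape for each replicate number, and the mean with its SD (n = 3) beside the points. The genotypes overlap in all 9 panels, and replicate 1 is the highest library of its genotype for Tbr1, Bcl11b, Fezf2, Sox5, Bcl11a and Cux2.

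**Figure D3:**
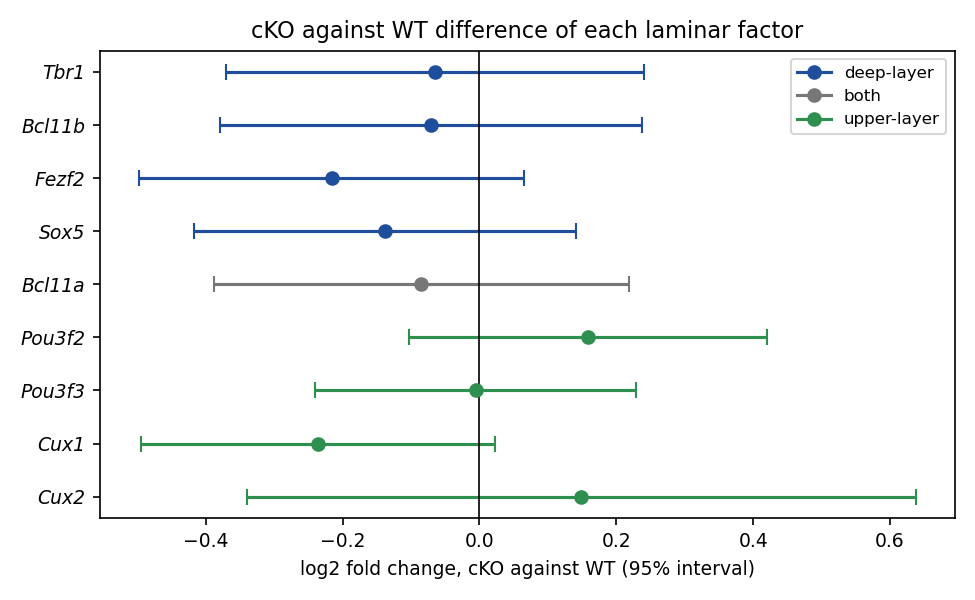
Log2 fold change of each transcription factor, cKO against WT, with its 95% interval from edgeR, in blue for deep-layer factors, grey for Bcl11a and green for upper-layer factors. Every interval includes 0, and the estimates run from -0.24 for Cux1 to 0.16 for Pou3f2.

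The second question was whether deep-layer and upper-layer factors moved differently. The 4 deep-layer estimates were all negative (4 of 4, with a median of -0.10), against 49.2% of all genes tested with a negative estimate. The 4 upper-layer estimates were divided between 2 negative and 2 positive values, with a median of 0.07, and the median of all genes was 0.0019. For each library the mean log2 CPM of the 4 upper-layer genes was subtracted from that of the 4 deep-layer genes. The result was 1.21, 1.15 and 0.98 in WT and 1.17, 0.76 and 0.99 in cKO. Because CPM is not divided by length, only the change of this value between libraries can be read.

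The deep minus upper value was 1.12 ± 0.12 in WT and 0.97 ± 0.21 in cKO (SD, n = 3 each), a difference of -0.14 on the log2 scale. The pooled SD within genotypes was 0.17, and the libraries overlapped. The difference was thus smaller than the spread between libraries, and a shift of deep against upper factors was not detectable with 3 libraries per genotype. It was negative in every alternative tried, from -0.24 without cKO replicate 1 to -0.03 without cKO replicate 2. It was -0.13 when cKO replicate 3 and the library labelled WT replicate 2 were both left out. Moving Bcl11a into the deep-layer group gave -0.13, and moving it into the upper-layer group gave -0.12. No p is given, since the genes were grouped with earlier results of these data known.

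Most of the variation among these factors ran across genotypes. The mean log2 CPM of the deep-layer factors was 8.60, 8.34 and 8.44 in WT and 8.58, 8.24 and 8.17 in cKO, so that replicate 1 of each genotype stood highest. A list of 12 pan-neuronal genes (such as Tubb3, Dcx and Stmn2, of neuronal microtubules) was also highest in those libraries, at 7.93, 7.74 and 7.84 in WT and at 8.03, 7.68 and 7.71 in cKO. The mean of 10 radial glia genes was lowest in them, at 7.24, 7.53 and 7.58 in WT and at 7.20, 7.67 and 7.42 in cKO. In TPM, Nes, Vim, Fabp7, Hes1 and Slc1a3 of this list were lowest in replicate 1 of each genotype, whereas Pax6, Sox2, Sox9, Hes5 and Notch1 were not. Sox2, for example, was at 160, 145 and 162 TPM in WT and at 156, 195 and 152 TPM in cKO. The upper-layer factors did not follow the order of the deep-layer factors. Their mean was 7.39, 7.18 and 7.46 in WT and 7.41, 7.48 and 7.18 in cKO, lowest in the library labelled WT replicate 2 and in cKO replicate 3.

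**Figure D4:**
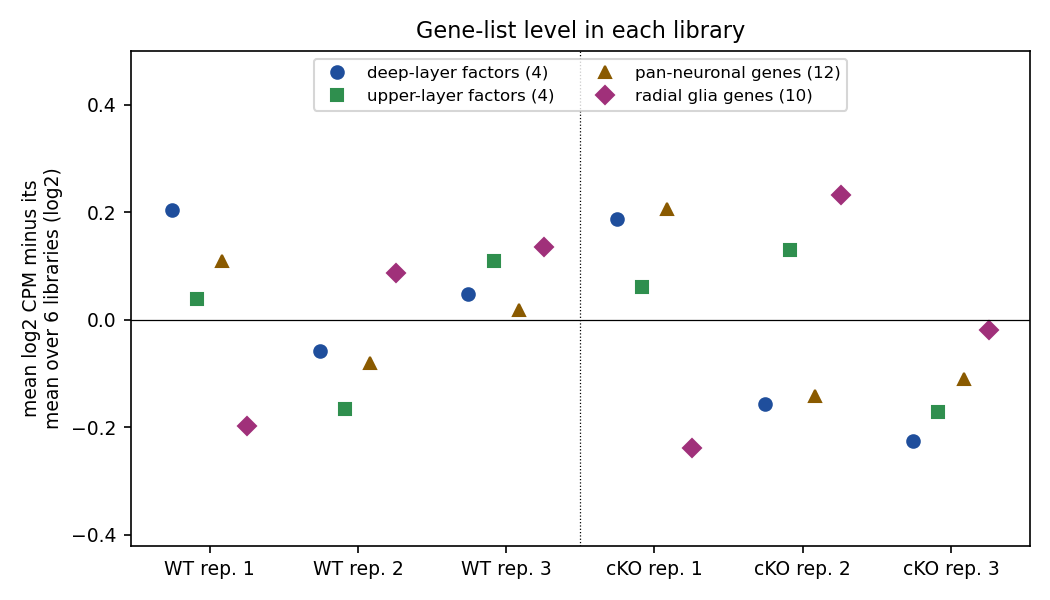
Mean log2 CPM of the deep-layer factors, the upper-layer factors, 12 pan-neuronal genes and 10 radial glia genes in each library, each minus its own mean over 6 libraries. Deep-layer factors and pan-neuronal genes are high, and radial glia genes low, in WT replicate 1 and cKO replicate 1.

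The spread of the 9 genes within a genotype was an SD of 0.14 (Pou3f3) to 0.35 (Cux2) on the log2 CPM scale. The median over the 5125 tested genes with a mean of at least 50 CPM was 0.10. The laminar factors therefore varied more between libraries of 1 genotype than most genes of such abundance. The genotype differences had to be read against this spread. Counts of the Y-linked gene Ddx3y were 879 in WT replicate 1, 1179 in cKO replicate 1 and 1204 in cKO replicate 3, and 0 in the other libraries. With presence of these counts as a covariate, 0 of the 9 factors passed the adjusted threshold. The deep-layer estimates were then more negative, at -0.11 for Tbr1, -0.14 for Bcl11b, -0.28 for Fezf2 and -0.19 for Sox5. Bcl11a was at -0.14, and the upper-layer estimates were 0.20 for Pou3f2, 0.0386 for Pou3f3, -0.17 for Cux1 and 0.07 for Cux2.

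Since the deep-layer factors and the pan-neuronal genes varied together across libraries, the deep-layer mean was also taken relative to the pan-neuronal mean of the same library. This comparison was added after the values were seen. The deep-layer mean minus the pan-neuronal mean was 0.67, 0.60 and 0.60 in WT and 0.55, 0.56 and 0.46 in cKO. The genotypes did not overlap and cKO was lower, with a difference of -0.10 on the log2 scale and a pooled SD of 0.05. This ratio received no test. With 3 libraries per genotype, full separation in either direction has a probability of 0.1 when the genotype labels are shuffled. A loss of deep-layer transcripts is therefore not concluded from it. The difference lay between -0.12 and -0.06 when other units, another reference list or fewer libraries were used, and it was -0.08 without both cKO replicate 3 and the library labelled WT replicate 2. The upper-layer mean minus the pan-neuronal mean was -0.54, -0.56 and -0.38 in WT and -0.62, -0.20 and -0.53 in cKO, which overlapped.

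Taken gene by gene, 2 of the 9 factors did not overlap between genotypes on this relative scale, both lower in cKO, against 4.55% of other tested genes in either direction, 2.42% higher and 2.12% lower. Fezf2 minus the pan-neuronal mean was 0.12, 0.11 and -0.01 in WT and -0.08, -0.10 and -0.18 in cKO, a difference of -0.19. Sox5 minus the pan-neuronal mean was 0.53, 0.57 and 0.58 in WT and 0.49, 0.42 and 0.40 in cKO, a difference of -0.12. Tbr1, Bcl11b, Bcl11a and the 4 upper-layer factors overlapped. The ratio shows unequal change of these genes and the pan-neuronal genes within a library, and not which of them changed.

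**Figure D5:**
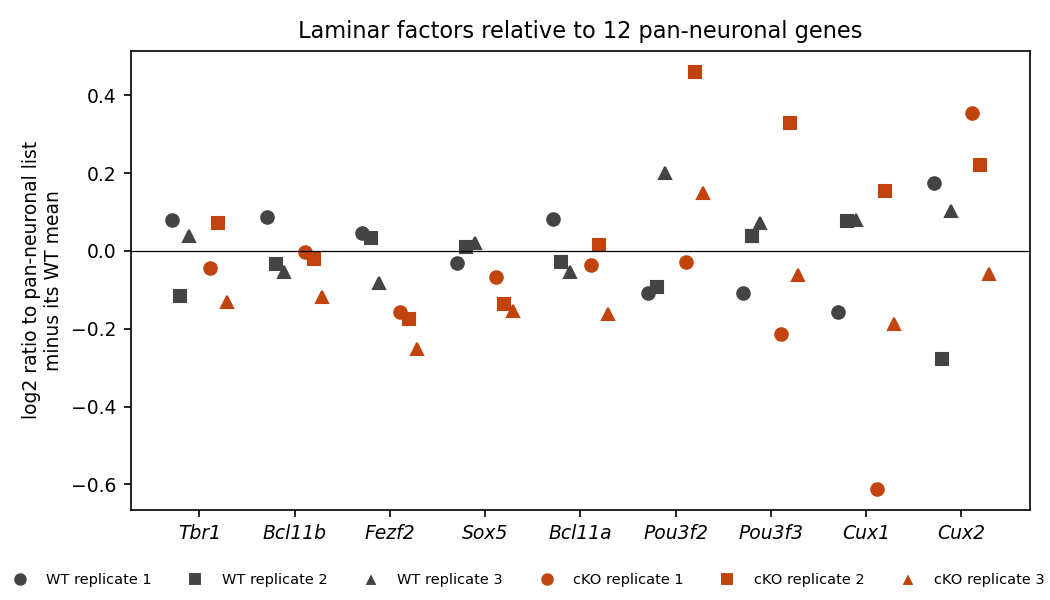
Log2 ratio of each transcription factor to the mean of 12 pan-neuronal genes in the same library, minus the WT mean of that ratio, with WT in grey and cKO in orange. For Fezf2 and Sox5 the 3 cKO libraries lie below the 3 WT libraries, and for the other genes the genotypes overlap.

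Neurons of other origins also express pan-neuronal genes, and the summed level of markers of ventral neurons differed between the genotypes without overlap. This sum over 15 ventral forebrain genes, which are made by the ganglionic eminences and the interneurons born there, was 157 to 217 TPM in WT and 304 to 316 TPM in cKO. Of the 12 that could be tested, 12 had positive estimates (median log2 fold change 0.75), 6 had an unadjusted p below 0.05, against 1.75% of all genes tested that were higher at this level, and 0 passed the adjusted threshold by edgeR. Sst, a peptide of interneurons, was at 64.6, 48.9 and 59.6 TPM in WT and at 136, 120 and 126 TPM in cKO (edgeR adjusted p 0.0953). Dlx1 of the same list was at 14.7, 13.0 and 29.0 TPM in WT and at 26.3, 36.8 and 33.6 TPM in cKO. Dlx2 was at 6.14, 6.80 and 18.1 TPM in WT and at 14.5, 26.4 and 19.1 TPM in cKO. Isl1, which defines striatal precursors, was at most 0.62 TPM in any library. Nkx2-1, which defines the medial ganglionic eminence, was at most 0.44 TPM, and neither Isl1 nor Nkx2-1 had enough counts to be tested. The part of these cells in the values of the laminar factors was not tested.

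Other cell types were checked in the same way. Emx1, a homeobox gene that defines the dorsal telencephalon, was at 244, 192 and 182 TPM in WT and at 235, 225 and 189 TPM in cKO, so that a defining marker of the labelled tissue was present in every library. Cajal-Retzius genes belong to the earliest marginal-zone neurons, which also express Tbr1. They summed to 117 to 148 TPM in WT and to 95.6 to 124 TPM in cKO. Of 7 estimates 6 were negative, and 0 of 7 passed the adjusted threshold by edgeR. Reln was lower at an unadjusted p below 0.05 by edgeR, 1 of 7 against 1.81% of all genes tested. The genotypes did not overlap for 1 of the 7 genes, against 9.04% of all genes tested. Intermediate progenitor genes such as Eomes had 6 of 6 negative estimates with a median of -0.06 and 0 calls. A list of collagen and other genes of meninges, which dermal and other mesenchymal cells share, held 8 genes, of which 5 were tested. All 5 had positive estimates and 0 passed the adjusted threshold. At an unadjusted p below 0.05 by edgeR 3 of 5 were higher, against 1.75% of all genes tested. This list summed to 4.69 to 7.18 TPM in WT and to 5.09 to 287 TPM in cKO. Epidermal genes (5 listed, 1 tested) summed to 0.96 to 1.45 and 1.33 to 280 TPM. Both high values were those of cKO replicate 3. In that library Col1a1 was at 48.0 TPM, Col1a2 at 61.4, Col3a1 at 72.1, Dcn at 35.0, Lum at 43.7 and Twist1 at 26.2 TPM. The other genes of the meninges list, Foxc1 and Aldh1a2, were at 0.62 and 0.06 TPM, within the range of the other libraries. The source of this material was not tested. In CPM, cKO replicate 3 was also the library in which Tbr1, Bcl11b, Fezf2, Bcl11a and Pou3f3 were lowest. In TPM the same held except for Tbr1. Its lowest value was 232 TPM in the library labelled WT replicate 2, against 235 TPM in cKO replicate 3. The part of this material in those values was not tested, and the values without this library are given beside each factor.

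Sums of erythroid genes (5 of 5 estimates positive) were 2290 to 3598 TPM in WT and 2665 to 4105 TPM in cKO, those of endothelial genes (5 of 6 positive) 44.2 to 65.0 and 48.9 to 64.2 TPM, and those of microglial genes (4 of 5 positive) 25.3 to 40.3 and 26.5 to 41.1 TPM. These ranges overlapped between the genotypes, and 0 genes of these lists passed either threshold.

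Other genes of laminar identity were examined as lists. Of 9 further deep-layer genes, 0 passed the adjusted threshold, 1 had a lower level in cKO at an unadjusted p below 0.05, and 4 estimates were positive and 5 negative, with a median of -0.07. That gene was Zfpm2 (Fog2), a zinc-finger cofactor found in corticothalamic neurons of layer VI. It was at 53.1, 49.5 and 41.6 CPM in WT and at 40.0, 32.9 and 36.0 CPM in cKO, without overlap, with a log2 fold change of -0.41 (SE 0.12), an unadjusted p of 0.00817 and an edgeR adjusted p of 1. The background for a lower gene is 1.81% at an unadjusted p below 0.05 and 4.83% for lack of overlap. Crym, a deep-layer marker that binds thyroid hormone, was at 3.71, 3.35 and 4.06 CPM in WT and at 3.37, 2.13 and 2.53 CPM in cKO (log2 fold change -0.47, SE 0.22, edgeR adjusted p 1). The layer VI genes Foxp2 and Tle4 had log2 fold changes of -0.09 and -0.07.

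Of 8 further upper-layer genes, 0 passed the adjusted threshold and 0 the unadjusted one, with 2 positive and 6 negative estimates and a median of -0.07. The genotypes did not overlap for 1 of these 8 genes, as for 1 of the 9 further deep-layer genes, against 9.04% of all genes tested. Lhx2, a homeodomain factor of cortical progenitors, had a log2 fold change of -0.12 (SE 0.09), which was -0.06 without cKO replicate 3 and -0.05 without WT replicate 1. Inhba, a subunit of activin, had a log2 fold change of 0.74 (SE 0.54), which rested on 6.88 CPM in cKO replicate 3 against 1.57 to 2.50 CPM in the other libraries, and it was -0.22 without that library.

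Regulators shared by projection neurons of all layers gave a similar picture. Of 12 such genes, 0 passed either threshold, with 4 positive and 8 negative estimates and a median of -0.07. Nfib, a nuclear factor of deep-layer neurons and glia, was at 1632, 1527 and 1460 CPM in WT and at 1561, 1189 and 1204 CPM in cKO (log2 fold change -0.22, SE 0.12, edgeR adjusted p 1). Zeb2, a repressor in postmitotic neurons, had a log2 fold change of -0.14 (SE 0.08, edgeR adjusted p 1). As in Fezf2 and Sox5, cKO replicates 2 and 3 of Nfib lay below every WT library and cKO replicate 1 did not. Relative to the mean of these 12 regulators, the deep-layer mean was -0.04, -0.05 and -0.04 in WT and -0.11, -0.07 and -0.12 in cKO.

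The genes whose profile over the 6 libraries lay nearest to the deep-layer mean were Sox11, Paqr3 and Clvs1, with root mean square differences of 0.026, 0.027 and 0.027 on the centred log2 CPM scale. The median of the 9871 candidate genes was 0.18. Sox11, an SRY-box factor of newborn neurons, deviated by 0.17, -0.03 and 0.02 in WT and by 0.20, -0.12 and -0.23 in cKO. The profiles nearest to the upper-layer mean were those of Zfp64, Taf3 and Dgkh, at 0.027, 0.031 and 0.031, where the median was 0.16. These likenesses are descriptions over 6 libraries that share depth and dissection, and with so many candidates close matches are found for any profile.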

How the data were processed

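mRNA libraries of E13.5 cortex were sequenced by the authors, whose processing notes name HISAT2 2.2.1, Bowtie2 2.4.5 and RSEM 1.3.1 and the builds GRCm38 and mm10. The deposited table holds, for each of 17348 genes in 6 libraries, expected counts (10.9% of values not whole), TPM and FPKM as deposited by the authors. TPM is scaled per library to a common sum and for length, and was used for levels, marker sums and 1 alternative. FPKM deposited by the authors was not used, and nor were 6 columns of group averages. The columns headed Ctrl were taken as the libraries labelled WT. Expected counts were rounded, and filterByExpr (minimum count 10, minimum total 15) kept 13340 genes. The test was edgeR 4.0.16 (R 4.3.3) with TMM factors, glmQLFit and glmQLFTest, genotype as the only term, Benjamini-Hochberg adjustment over all genes tested and a threshold of 0.05. The SE is the estimate over the root of F, and 95% intervals use the total degrees of freedom. With the library totals given above, 3 counts, the limit that a count of 0 allows, equal 0.184 to 0.189 CPM, which covers counting error only. Between any pair of libraries at most 1.66% of counts were equal, so none was a copy of another. An exact two-sided permutation test of 3 against 3 libraries cannot go below 0.1. The fitting step was tested on simulated data. The genes and lists were chosen with earlier results of these data known. Genes named beside the 9 factors and Ybx1 were the 2 with the lowest p in each laminar list and the 3 nearest to each mean profile (genes of at least 10 CPM). Emx1, Foxp2, Tle4, Sst, Reln, Eomes, Isl1, Nkx2-1, Krt5 and Col3a1 were named after their values were seen. The same holds for Dlx1, Dlx2, the other genes of the meninges list and the 10 radial glia genes. Some genes of the lists enter the counts and are not reported here. The alternatives were DESeq2 1.42.0, limma-voom, RLE factors, upper-quartile factors, a minimum of 10 counts per library, no filter, log2(TPM + 1) with limma 3.58.1, a replicate block, presence of Y-linked Ddx3y counts as a covariate, each library left out, and cKO replicate 3 left out together with the library labelled WT replicate 2.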

Additional observations from a re-analysis of the deposited data

How the results depend on the processing

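Over 16 alternative fits 0 of the 9 laminar factors passed the adjusted threshold, with a lowest adjusted p of 0.502 (Fezf2, edgeR with the replicate block). At an unadjusted p below 0.05, Fezf2 passed in 3 of 16 fits (0.006 with the block, 0.0399 with the Y-linked covariate, 0.0047 without cKO replicate 1), Cux1 in 2 (0.0223 with the block, 0.00372 without cKO replicate 2), Sox5 in 1 (0.00881 without cKO replicate 1) and the other 6 in 0. When single libraries were left out, the log2 fold change crossed 0 for Cux2 (-0.0718 to 0.30), Pou3f3 (-0.1042 to 0.0761), Bcl11a (-0.21 to 0.0111), Bcl11b (-0.21 to 0.029), Tbr1 (-0.17 to 0.0279) and Inhba (-0.2233 to 1.09). Pou3f3 was also positive with upper-quartile factors (0.0063), with the Y-linked covariate (0.0386) and without both cKO replicate 3 and the library labelled WT replicate 2 (0.0487), a pair of omissions that gave -0.2974 for Inhba. The cause of these reversals was not tested.

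Over all genes, 0 passed the adjusted threshold in the edgeR test. DESeq2 called 2 higher (Sst and Dynlt1b) and 2 lower (Ybx1 and Eef2), the replicate block 1 higher (Sst) and 1 lower (Ybx1), and omission of both libraries 1 higher (Tmem269) and 1 lower (Ybx1), and single omissions 0 to 1 in each direction, where the 1 came without the library labelled WT replicate 2. At an unadjusted p below 0.05, the 234 genes higher became 390 with no filter, 148 with DESeq2, 476 with the block, 365 with the Y-linked covariate, 105 without both libraries and 121 to 571 without single libraries, and the 242 genes lower became 614 with the block, 369 with the covariate, 141 without both and 118 to 482 without single libraries. Of these calls 49.2% were higher, against 58.3% with upper-quartile factors, 60% with no filter, 59.5% with log2(TPM + 1), 43.5% with DESeq2, 43.7% with the block, 42.7% without both libraries and 42.3% to 57.7% without single libraries.

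Same-numbered WT and cKO libraries deviated together for numbers 1 and 2 (correlations over 13340 genes of 0.406 and 0.3104) and not for 3 (-0.02), and the labels do not say that a number is a shared litter or batch, so the block was not the main design. The 3 sequencing batches that the series mentions are not tied to libraries, so batch and genotype cannot be told apart.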
